A study of Mus musculus with 12 samples.

Results

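The core circadian clock genes are 10 of the 52459 genes in the count tables, chosen as a fixed list of symbols: *Per1*, *Per2*, *Per3*, *Cry1*, *Cry2*, *Clock*, *Arntl* (which encodes BMAL1), *Nr1d1* and *Nr1d2* (which encode REV-ERBα and REV-ERBβ) and *Dbp*. In *Tpp1*-/- brains, *Per1* and *Per2* changed by -56.8% to -39.1% in both areas examined, while the changes of the other 8 members lay between -18.1% and 10.7%.

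The samples came from the *Tpp1*-/- mouse, a gene-targeted model of late-infantile neuronal ceroid lipofuscinosis, a lysosomal storage disease of childhood caused by loss of tripeptidyl peptidase 1. Poly(A)-selected RNA of the cerebellum (Cb) and of the forebrain with midbrain (F/M) was sequenced as 12 libraries, 3 for each of the 4 groups: wild-type cerebellum (Cb-N), *Tpp1*-/- cerebellum (Cb-T), wild-type F/M (F/M-N) and *Tpp1*-/- F/M (F/M-T). All mice were males of 4 months, and the wild-type (N) mice were siblings of the homozygous mutants (T) from a line kept by heterozygous crosses. The mutation is present in every cell of the animal, each library is dissected bulk tissue. By the study's methods the RNA of both areas came from 3 mice of each genotype, so that Cb and F/M libraries may share animals. The sample labels do not tie a library to a mouse, so the p-values measure the spread between these libraries. Comparisons between the areas treated the libraries as independent. The mice lived under a light and dark cycle, and the time of day of dissection is not given in the sources used here. With no series of time points, a shift in the phase of a rhythmic gene and a change in its mean level cannot be told apart.

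The clock is a feedback loop of transcription. CLOCK and BMAL1 bind E-box sequences and switch on the *Per*, *Cry*, *Nr1d1*, *Nr1d2* and *Dbp* genes, PER and CRY proteins return to the nucleus and block CLOCK and BMAL1, and the REV-ERB proteins repress *Arntl* and *Clock* through ROR elements. *Per1* and *Per2* are also induced acutely, by neuronal activity through cAMP response elements and by glucocorticoids, so that they are both gears and inputs of the clock, and *Dbp* is a direct E-box output that acts through D-box sequences.

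The promoters are shown because the members differ in the elements they carry. RefSeq windows of the bases upstream of each transcript start (build GRCm38.p6, 250 bases) were found for 9 of the 10 members, in 13 windows, and not for *Per2*. In the sequences printed here, 5′ to 3′ on the strand of the gene, the capitals mark an E-box (CACGTG), an E′-box (CACGTT), a D-box (TTATGTAA) or the core of a cAMP response element (TGACG), searched on both strands, so that a reverse match reads AACGTG or CGTCA.
Per1, first start (chr11:69098699-69098948, + strand): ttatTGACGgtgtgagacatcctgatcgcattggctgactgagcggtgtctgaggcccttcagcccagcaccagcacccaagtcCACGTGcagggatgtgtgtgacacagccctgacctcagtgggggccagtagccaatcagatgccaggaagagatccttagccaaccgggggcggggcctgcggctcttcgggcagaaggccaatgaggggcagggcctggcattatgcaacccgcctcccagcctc
Per1, second start (chr11:69099902-69100151, + strand): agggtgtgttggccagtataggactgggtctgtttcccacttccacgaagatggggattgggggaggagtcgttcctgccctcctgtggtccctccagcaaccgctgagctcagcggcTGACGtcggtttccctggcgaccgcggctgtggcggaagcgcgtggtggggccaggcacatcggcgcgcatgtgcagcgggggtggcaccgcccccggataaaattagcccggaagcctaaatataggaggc
Per3 (chr4:151044666-151044915, - strand): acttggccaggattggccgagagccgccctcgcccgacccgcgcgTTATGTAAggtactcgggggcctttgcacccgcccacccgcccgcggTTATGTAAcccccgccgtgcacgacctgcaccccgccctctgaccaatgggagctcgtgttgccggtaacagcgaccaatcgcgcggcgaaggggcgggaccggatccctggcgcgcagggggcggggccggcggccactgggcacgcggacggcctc
Cry1 (chr10:85185055-85185304, - strand): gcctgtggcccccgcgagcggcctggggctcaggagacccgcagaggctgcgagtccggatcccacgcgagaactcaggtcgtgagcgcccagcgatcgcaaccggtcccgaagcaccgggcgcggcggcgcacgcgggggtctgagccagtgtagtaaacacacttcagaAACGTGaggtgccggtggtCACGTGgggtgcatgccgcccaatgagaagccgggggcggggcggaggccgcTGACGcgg
Nr1d1 (chr11:98775378-98775627, - strand): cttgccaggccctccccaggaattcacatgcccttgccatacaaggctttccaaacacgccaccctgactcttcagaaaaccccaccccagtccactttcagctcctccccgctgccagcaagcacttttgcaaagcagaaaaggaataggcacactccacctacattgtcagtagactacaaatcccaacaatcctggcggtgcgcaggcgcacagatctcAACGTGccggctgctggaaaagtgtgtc
Dbp (chr7:45704997-45705246, + strand): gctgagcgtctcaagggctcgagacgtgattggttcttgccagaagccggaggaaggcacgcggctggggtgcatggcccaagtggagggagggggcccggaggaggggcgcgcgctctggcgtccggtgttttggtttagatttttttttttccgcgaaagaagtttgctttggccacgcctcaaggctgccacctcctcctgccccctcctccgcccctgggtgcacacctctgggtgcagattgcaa

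*Per1* held an E-box whose first base lies 166 bases before its first start, and a TGACG core in each of its windows, 246 and 132 bases before the start. *Per3* held D-boxes 205 and 158 bases before its start. *Cry1* held an E-box at 60 bases, an E′-box at 79 bases and a TGACG core at 8 bases, *Cry2* an E′-box at 166 bases and a TGACG core at 209 bases, and *Nr1d1* an E′-box at 28 bases. Of 32851 RefSeq windows of this length, 6.02% held an E-box, 3.85% an E′-box, 0.819% a D-box and 17.8% a TGACG core. No window of a member held the full cAMP response element (TGACGTCA, which contains that core, 1.55% of windows), the CG form of the D-box (TTACGTAA, 0.113%) or a ROR element core (TAGGTCA, 2.23%, or TGGGTCA, 3.24%), and none of these letters were found in the windows of *Clock*, *Arntl*, *Nr1d2* and *Dbp*. A match is a description of letters, and elements outside these windows were not searched.

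The libraries held between 21428379 and 24458189 counts, and the members between 407 and 6019 counts in a library, so that all 10 passed the filter on low counts in every comparison. Levels are counts scaled to library size (CPM) with TMM factors set over all 12 libraries together, and 3 counts correspond to 0.121 to 0.139 CPM, a floor that covers counting error only. The targeted gene followed the labels: *Tpp1* had 112 to 114 CPM in Cb-N, 28.0 to 31.1 in Cb-T, 87.8 to 94.4 in F/M-N and 21.8 to 23.9 in F/M-T. The cerebellar marker list summed to at least 5903 CPM in every Cb library and to no more than 308 in any F/M library. The T libraries of both areas also stood apart in markers of neighbouring regions. A list of 13 Hox genes of the hindbrain and spinal cord lay between 0.325 and 0.551 CPM as a sum in the Cb-N libraries, with 6 of the genes at 0 in all of them, and between 13.7 and 14.6 CPM in the Cb-T libraries, with 10 of 10 tested higher, and reached no more than 0.0847 CPM in F/M. A list of 7 olfactory bulb genes summed to 55.7 to 56.6 CPM in F/M-N against 29.5 to 31.3 CPM in F/M-T, with 6 lower. In Cb that list does not mark the bulb as a sum, because 1 of its genes, *Eomes*, was higher in control Cb (53.2 CPM) than in control F/M (3.49 CPM). *Eomes* fell to 11.4 CPM in Cb-T, while 2 of the 4 genes tested in Cb were higher (29.8% of all genes). Their part in the differences of the clock genes was not tested.

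The first question was how each member differed between T and N libraries, in Cb and in F/M. In Cb, 9 members fell and 1 rose at an FDR below 0.1 in edgeR's quasi-likelihood test, where 27.9% of the 16382 genes tested fell and 29.8% rose. In F/M, 7 members fell and 0 rose, where 14.4% of 16665 genes fell and 12.8% rose. With the study's 1.5-fold limit added (DEG, called here from edgeR alone, whereas the study also asked for a call by more than 1 method), the members called were *Per1* and *Per2* in each area, 2 of 10, against 2.66% of all genes called lower in Cb and 0.858% in F/M. When agreement of 2 methods out of edgeR, limma-voom and DESeq2 was asked for, 2 members were called in each area. The libraries of T and N did not overlap, with T lower, for 9 members in Cb and 8 in F/M, where this held for 29.4% and 23.6% of all genes. *Dbp* was the member with T higher and no overlap in Cb (27.7% of all genes). The median log2 fold change of the 10 members was -0.25 in Cb and -0.17 in F/M, beside 0.012 and 0.0078 over all genes tested.

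**Figure D1:**
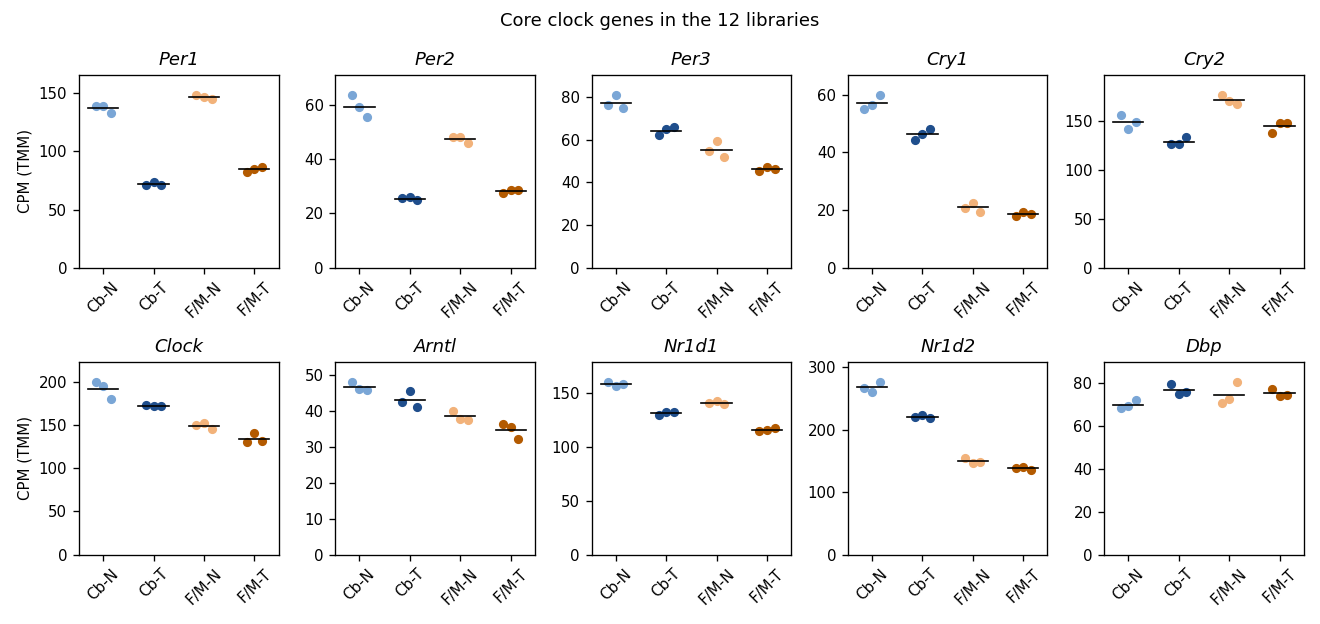
Level of each core clock gene in the 12 libraries, in CPM on the TMM scale and on axes that start at 0; points are single libraries and black lines the means of 3. The T libraries of *Per1* and *Per2* lie far below the N libraries in both areas, *Dbp* stays between 68.6 and 80.5 CPM throughout, and the remaining genes show small steps.

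*Per1*, which responds within a short time to light, activity and glucocorticoids, stood at 139, 139 and 133 CPM in Cb-N and at 70.8, 74.1 and 71.2 CPM in Cb-T. In F/M it had 148, 147 and 145 CPM in N and 82.3, 85.1 and 86.4 CPM in T. The groups lay far apart in both areas, with a gap between the lowest N and the highest T library much wider than either group. The log2 fold change was -0.91 (standard error 0.033, adjusted p = 3.5e-26) in Cb (a change of -47.0%) and -0.76 (standard error 0.034, adjusted p = 1.7e-12) in F/M (-40.9%). *Per1* ranked 140th from the lowest log2 fold change of the 16382 genes in Cb and 103rd of 16665 in F/M.

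*Per2*, a repressor without which mice lose their rhythm in constant darkness, had 63.4, 59.0 and 55.5 CPM in Cb-N and 25.5, 25.9 and 24.8 CPM in Cb-T. The corresponding levels in F/M were 48.1, 48.0 and 45.7 CPM in N and 27.5, 28.5 and 28.4 CPM in T. The control levels differed between the areas while the T levels of both areas came close to each other. The change was -1.21 on the log2 scale (standard error 0.049, adjusted p = 3.1e-24) in Cb, a change of -56.8% that ranked 52nd from the lowest, and -0.71 (standard error 0.047, adjusted p = 1.1e-09) in F/M, a change of -39.1% that ranked 122nd.

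*Per3*, the paralog whose loss affects rhythm least, had 76.1, 80.7 and 74.9 CPM in Cb-N against 62.2, 65.0 and 65.8 in Cb-T. In F/M it had 54.8, 59.5 and 52.0 CPM in N against 45.3, 47.3 and 46.4 in T. The groups did not overlap, but the steps were small beside those of its paralogs, -15.9% in Cb (log2 fold change of -0.25 with standard error 0.038, adjusted p = 3.3e-07) and -14.4% in F/M (-0.22 with standard error 0.048, adjusted p = 0.0021).

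The CRY repressors differed between the areas already in controls. *Cry1* had 55.0, 56.3 and 59.7 CPM in Cb-N and 44.4, 46.3 and 48.2 in Cb-T, a change of -18.1% (log2 fold change -0.29, standard error 0.043, adjusted p = 2.9e-07). In F/M its levels were 20.8, 22.6 and 19.3 CPM in N and 17.8, 19.3 and 18.7 in T, where the libraries overlapped and the difference missed the threshold (log2 fold change -0.13, standard error 0.067, adjusted p = 0.18), though it passed in a single fit of all libraries (0.061) and without F/M-N replicate 3 (0.058). *Cry2*, the more abundant paralog, had 156, 142 and 149 CPM in Cb-N and 126, 126 and 134 in Cb-T. Its F/M levels were 176, 170 and 167 CPM in N and 138, 148 and 148 in T. It fell by 12.8% in Cb (adjusted p = 1.5e-06) and fell by 13.6% in F/M (adjusted p = 2.3e-04), with no overlap.

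The activators made small steps in both areas. *Clock* had 199, 195 and 180 CPM in Cb-N and 173, 171 and 172 in Cb-T, and in F/M 149, 152 and 145 CPM in N and 130, 140 and 131 in T. It fell by 9.21% in Cb (log2 fold change of -0.14 with standard error 0.030, adjusted p = 1.3e-04) and fell by 8.04% in F/M (-0.12, standard error 0.035, adjusted p = 0.018). *Arntl* had 48.0, 46.1 and 45.7 CPM in Cb-N and 42.4, 45.5 and 41.2 in Cb-T, groups that nearly touch. In F/M it had 40.1, 37.8 and 37.6 CPM in N and 36.5, 35.6 and 32.2 in T. The log2 fold change of *Arntl* was -0.10 (standard error 0.045, adjusted p = 0.055) in Cb and -0.11 (standard error 0.053, adjusted p = 0.14) in F/M, where it passed in a single fit of all libraries (0.035). The Cb call rests on small steps: with total count scaling the adjusted p was 0.28, with DESeq2 it was 0.12, and it rose above 0.1 when Cb-N replicate 1 (0.17), Cb-T replicate 1 (0.13) or Cb-T replicate 3 (0.24) was left out.

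The REV-ERB genes, the members with the highest levels per length, fell by similar amounts in Cb. *Nr1d1* had 160, 157 and 158 CPM in Cb-N and 130, 132 and 133 in Cb-T, and in F/M 141, 143 and 140 CPM in N and 115, 116 and 117 in T. The libraries of each group lay close together, and *Nr1d1* fell by 16.1% in Cb (log2 fold change of -0.25 with standard error 0.028, adjusted p = 3.9e-10) and fell by 16.0% in F/M (-0.25, standard error 0.032, adjusted p = 1.0e-05). *Nr1d2* had 267, 259 and 276 CPM in Cb-N against 221, 223 and 219 in Cb-T, a change of -16.7% (log2 fold change -0.26, standard error 0.026, adjusted p = 1.7e-11). Its F/M levels were 154, 147 and 148 CPM in N against 138, 140 and 136 in T, a change of -0.083 on the log2 scale (standard error 0.033, adjusted p = 0.080). That F/M call was lost, at an adjusted p of 0.15 with DESeq2, 0.19 with total count scaling, 0.11 with no filter on low counts, 0.31 without F/M-N replicate 1, 0.16 without F/M-T replicate 1 and 0.25 without F/M-T replicate 3.

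*Dbp*, an output with a wide daily swing in most tissues, went the other way. It had 68.6, 69.5 and 72.2 CPM in Cb-N and 79.8, 74.8 and 75.9 in Cb-T, a rise of 10.7% (log2 fold change 0.15, standard error 0.037, adjusted p = 8.7e-04). In F/M it had 71.0, 72.7 and 80.5 CPM in N and 77.5, 74.2 and 74.4 in T, which overlapped (log2 fold change 0.045, standard error 0.045, adjusted p = 0.53). F/M-N replicate 3 was the highest of its group, and without it the F/M difference was 0.10 (adjusted p = 0.081).

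**Figure D2:**
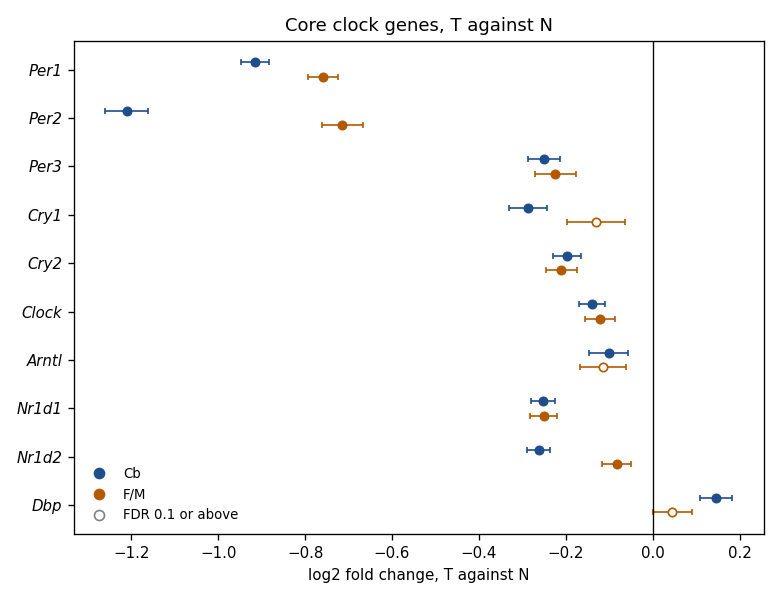
Log2 fold change of each core clock gene, T against N, with its standard error from the edgeR fit, in Cb (blue) and F/M (orange); open points have an FDR of 0.1 or above. *Per1* and *Per2* lie between -1.21 and -0.71, and the other 8 genes between -0.29 and 0.15.

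Some members lie over a gene on the opposite strand, and the strand setting of the counting is not given in the sources used here, although the library kit keeps strand. In the GENCODE annotation of GRCm38, *Dbp* (chr7:45705088-45710203, + strand) shares 539 exon bases, 18.0% of its exons, with *Sphk2*, and *Nr1d1* (chr11:98767932-98775333, - strand) shares 263 bases, 8.55%, with *Thra*. *Cry2* (chr2:92403646-92434043, - strand) shares 295 bases with *D930015M05Rik* and *Arntl* (chr7:113207465-113314126, + strand) shares 33 bases with *Gm45355*, 2 genes at or below 0.32 CPM on average in every group. *Sphk2* had 28.4 CPM in Cb-N and 26.4 in Cb-T (adjusted p = 0.15), and *Thra* had 386 and 385 CPM (adjusted p = 0.79), so neither partner passed the threshold in Cb. In F/M, *Sphk2* fell from 29.5 to 25.7 CPM (adjusted p = 0.034) and *Thra* had 641 and 634 CPM (adjusted p = 0.70). *Per1* (chr11:69095217-69109960, + strand), *Per2* (chr1:91415982-91459324, - strand), *Per3* (chr4:151003652-151044665, - strand), *Cry1* (chr10:85131700-85185064, - strand), *Clock* (chr5:76209868-76304792, - strand) and *Nr1d2* (chr14:18204054-18239127, - strand) share no exon base with another gene.

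The PER arm was then set against the BMAL1 arm (*Arntl* and *Clock*) and the REV-ERB arm (*Nr1d1* and *Nr1d2*) within each library, as the difference of mean log2 CPM, in which a scaling factor of the library cancels. These arm values are descriptions without a test. PER minus BMAL1 was -0.16, -0.12 and -0.14 in the Cb-N libraries and -0.83, -0.82 and -0.78 in the Cb-T libraries, a difference between the means of -0.67 with SDs of 0.019 and 0.024 (n = 3 each). In F/M it was -0.083, -0.022 and -0.075 in N and -0.56, -0.54 and -0.42 in T, a difference of -0.45 with SDs of 0.033 and 0.073. PER minus REV-ERB moved by -0.53 in Cb, from between -1.35 and -1.21 to between -1.81 and -1.78, and by -0.40 in F/M, from between -1.04 and -0.95 to between -1.43 and -1.38. Both gaps therefore opened in both areas without overlap. REV-ERB minus BMAL1 moved much less, by -0.14 in Cb, where N lay between 1.08 and 1.20 and T between 0.96 and 1.02, and by -0.049 in F/M, where the libraries overlapped. The mean of the CRY arm moved by -0.26 in Cb and -0.20 in F/M. Within the PER arm, *Per3* took less part in these gaps than *Per1* and *Per2*. Its log2 fold changes, -0.25 in Cb and -0.22 in F/M, were close to those of *Nr1d1* (-0.25 in each area). *Nr1d2* had -0.26 in Cb and -0.083 in F/M.

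**Figure D3:**
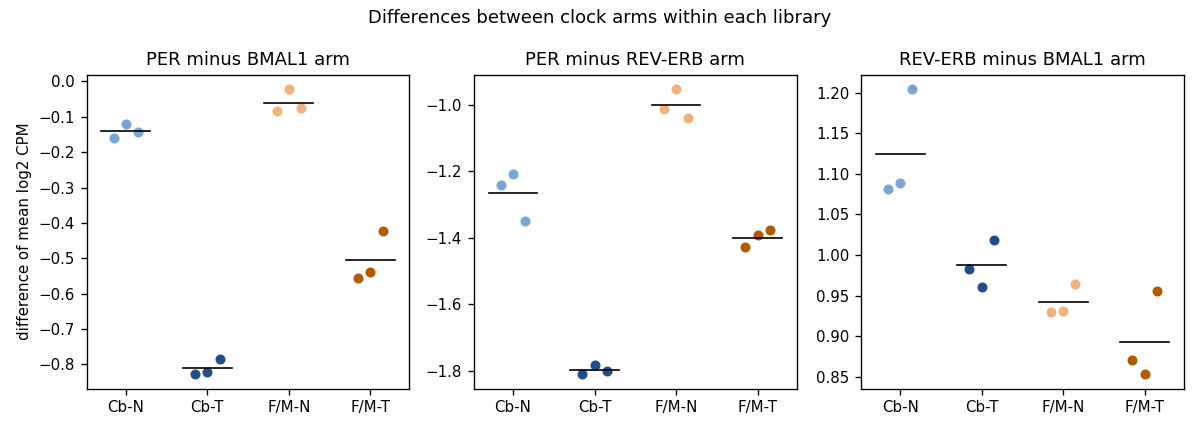
Difference of the mean log2 CPM of clock arms within each library, for the 4 groups; points are libraries, black lines means of 3, and each panel has its own axis. In the left and middle panels the T libraries lie below all N libraries of their area, by -0.67 and -0.53 on average in Cb and by -0.45 and -0.40 in F/M, while in the right panel the F/M groups overlap.

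The interaction of tissue and genotype, fitted on all 12 libraries as independent samples, tested whether the changes differed between the areas. *Per2* fell further in Cb than in F/M, by -0.48 on the log2 scale (standard error 0.071, adjusted p = 5.9e-06), and so did *Nr1d2* (-0.16, standard error 0.042, adjusted p = 0.0053) and *Per1* (-0.14, standard error 0.047, adjusted p = 0.034). These 3 of 10 members compare with 10.1% of 17482 genes with an interaction of this sign at this threshold. Without F/M-N replicate 2 the members past the threshold in either direction were 5. The *Per1* interaction was lost with no filter on low counts (adjusted p = 0.15) and without F/M-T replicate 3 (0.10). None of the members reached a 1.5-fold difference of the changes, which 7.61% of all genes did. *Cry1*, called in Cb and not in F/M, had an interaction of -0.14 (adjusted p = 0.24), and *Dbp* one of 0.12 (adjusted p = 0.15), so neither was shown to differ between the areas here. Both passed without F/M-N replicate 2 (0.088 and 0.097), *Cry1* also without Cb-T replicate 3 (0.059) and at a mean count of at least 50 (0.083), and *Dbp* also without F/M-N replicate 1 (0.070) and with no filter (0.0999).

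In control tissue, Cb-N against F/M-N, every member passed an FDR of 0.1, 7 higher and 3 lower in Cb, where 40.3% and 40.1% of 16725 genes did so. With the 1.5-fold limit 2 remained, both higher in Cb (19.2% of all genes): *Cry1* at 57.0 ± 2.4 against 20.9 ± 1.7 CPM (SD, n = 3 each), 2.72-fold, and *Nr1d2* at 267 ± 8.2 against 150 ± 3.8 CPM, 1.78-fold. *Per2*, *Per3*, *Clock*, *Arntl* and *Nr1d1* were higher in Cb by 11.7% to 39.1%, and *Cry2*, *Per1* and *Dbp* differed by -13.2%, -6.66% and -6.54%. The calls of *Per1* (adjusted p = 0.0080) and *Dbp* (0.055) were lost with total count scaling (0.30 and 0.50), and that of *Dbp* also without Cb-N replicate 1 (0.18), Cb-N replicate 2 (0.14) or F/M-N replicate 3 (0.36).

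Levels can be ranked between genes only per length, here as CPM per kilobase of GENCODE exons. In Cb-N, *Nr1d1* (51.5 ± 0.57, SD, n = 3) and *Nr1d2* (49.4 ± 1.5) stood highest with overlapping libraries. *Per1* (24.3 ± 0.66), *Cry2* (23.6 ± 1.1) and *Dbp* (23.4 ± 0.62) followed, each overlapping its neighbour, then *Cry1* (17.1), *Clock* (13.9), *Per2* (10.1), *Per3* (8.04) and *Arntl* (6.19), each clear of the next. In Cb-T the order of the middle changed: *Dbp* (25.7) stood next after the REV-ERB genes, *Per1* (12.8 ± 0.32) dropped to rank 6 beside *Clock* (12.5 ± 0.077) with overlapping libraries, and *Per2* (4.34 ± 0.094) dropped to the lowest place, below *Arntl* (5.72 ± 0.29). In F/M-N the order was *Nr1d1* (46.0), *Nr1d2* (27.7), *Cry2* (27.1), *Per1* (26.0), *Dbp* (24.97), *Clock* (10.9), *Per2* (8.07), *Cry1* (6.26), *Per3* (5.77) and *Arntl* (5.12). Libraries of *Nr1d2* and *Cry2*, of *Per1* and *Dbp*, and of *Cry1* and *Per3* overlapped there. In F/M-T, *Dbp* (25.2) overlapped *Nr1d2* (25.5), *Per1* (15.03) stood behind *Cry2* (22.9), and *Per3* (4.82), *Per2* (4.81) and *Arntl* (4.62) ended the order with overlapping neighbours. Within a group the members varied little between libraries, with a pooled SD of log2 CPM from 0.015 for *Nr1d1* to 0.077 for *Cry1*. The median over the 17482 genes kept was 0.087. That median is not matched for count level, so it does not show that the members vary less than genes of like level.

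Further genes of the clock were taken from lists of partners and RORs, of outputs and repressors, and of kinases and turnover factors. Their counts stand beside the shares of all genes, of which 29.8% rose and 27.9% fell in Cb and 12.8% rose and 14.4% fell in F/M. Of 5 partners and RORs tested in Cb, 2 rose and 2 fell, and in F/M 0 rose and 2 fell, with median log2 fold changes of -0.090 and -0.059. *Rora*, an activator at the elements where REV-ERB represses, had 496 to 525 CPM in Cb-N against 398 to 419 in Cb-T, a change of -19.6% (adjusted p = 1.4e-14). In F/M it had 146 to 157 CPM in N and 110 to 118 in T, a change of -23.4% (adjusted p = 2.8e-07). *Npas2*, the paralog that can stand in for CLOCK and is abundant in the forebrain, moved in opposite directions. It rose in Cb from 4.35, 3.62 and 4.55 to 5.15, 6.41 and 5.55 CPM (log2 fold change 0.46, adjusted p = 0.0018) and fell in F/M from 45.01, 48.3 and 45.5 to 37.8, 41.0 and 40.1 CPM (-0.19, adjusted p = 0.0069), with an interaction of 0.68 (adjusted p = 1.6e-04). Beside the *Npas2* rise, of 8 forebrain markers tested in Cb 3 were higher and 3 lower. *Drd2*, the dopamine receptor gene of striatal neurons, rose from 0.761 to 7.03 CPM on average (adjusted p = 4.5e-20), and *Drd1* rose from 0.409 to 0.769 CPM (adjusted p = 0.026). The part of forebrain RNA in the *Npas2* rise was not tested. *Rorb* rose in Cb (log2 fold change 0.21, adjusted p = 0.0062) and *Arntl2* fell there (-0.26, adjusted p = 0.057).

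Of 10 outputs and repressors, 3 rose and 5 fell in Cb, and 1 rose and 7 fell in F/M, with median log2 fold changes of -0.095 and -0.16. Of the PAR bZIP partners of *Dbp*, *Hlf* fell in both areas, from 152 to 155 CPM in the Cb-N libraries to 132 to 140 in Cb-T (-0.14, adjusted p = 6.9e-05) and from 250 to 255 in F/M-N to 197 to 204 in F/M-T (-0.31, adjusted p = 2.3e-07). *Tef* rose in Cb (0.058, adjusted p = 0.031) and fell in F/M (-0.12, adjusted p = 0.0019). *Nfil3*, the repressor at D-boxes, fell by 16.7% in Cb (adjusted p = 7.7e-04) and fell by 20.97% in F/M (adjusted p = 0.0083). *Bhlhe41*, an E-box repressor, rose in both areas (0.26, adjusted p = 2.6e-06, and 0.14, adjusted p = 0.023), while its paralog *Bhlhe40* rose in Cb from 99.7 to 102 CPM in N to 108 to 112 in T (adjusted p = 2.8e-04) and fell in F/M from 152 to 160 to 122 to 123 CPM (adjusted p = 7.3e-07). *Usp2*, a clock-driven deubiquitinase, fell in Cb (-0.30, adjusted p = 2.7e-10), and *Ciart*, a repressor of CLOCK and BMAL1, fell in F/M (-0.28, adjusted p = 0.017). *Noct*, a clock-controlled gene, fell in both areas (-0.13, adjusted p = 0.012, and -0.17, adjusted p = 0.0042).

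Of 9 kinases and turnover factors of PER and CRY, 1 rose and 3 fell in Cb, and likewise 1 and 3 in F/M, with medians of -0.029 and -0.028, so that the Cb counts lay near or below the shares of all genes (29.8% higher and 27.9% lower). *Csnk1d*, a kinase that phosphorylates PER, fell by 10.5% in Cb (adjusted p = 9.9e-06) and the change in F/M was -5.84% (adjusted p = 0.062). *Csnk1e*, its paralog, fell in F/M (-0.15, adjusted p = 0.0061). No gene of the turnover list reached the 1.5-fold limit in either area, and the same held for the partners and the outputs.

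**Figure D4:**
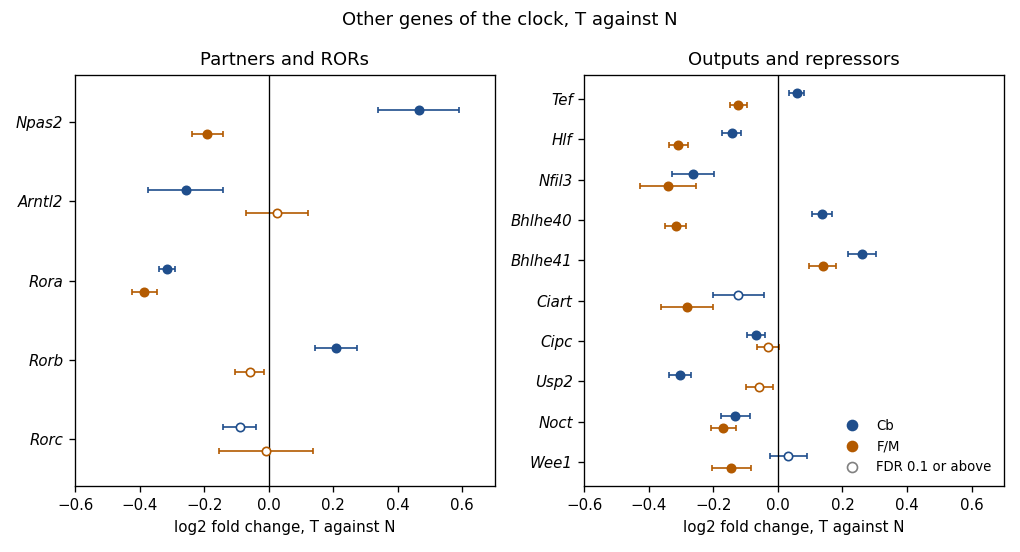
Log2 fold change, T against N, with its standard error, of other clock genes in Cb (blue) and F/M (orange), for partners and RORs (left) and outputs and repressors (right) on the same horizontal scale; open points have an FDR of 0.1 or above. *Rora*, *Hlf*, *Nfil3* and *Noct* lie below 0 and *Bhlhe41* above 0 in both areas, and *Npas2* and *Bhlhe40* lie on opposite sides of 0 in Cb and F/M.

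Genes known to be induced by the same inputs as *Per1* and *Per2* were described next. Of 14 activity-induced genes, 9 fell and 4 rose in Cb and 13 fell and 0 rose in F/M, with median log2 fold changes of -0.19 and -0.57. Of all genes, 27.9% fell and 29.8% rose in Cb, so that the risers there lay near the share of all genes. In F/M 14.4% of all genes fell and 12.8% rose. *Nr4a3*, an orphan nuclear receptor induced by cAMP and calcium, had 91.3, 96.2 and 93.9 CPM in Cb-N and 16.1, 17.3 and 15.3 in Cb-T, a larger change than that of any member (-2.51, adjusted p = 1.1e-36). In F/M it had 77.0, 77.6 and 79.0 CPM in N and 32.3, 31.9 and 30.6 in T (-1.27, adjusted p = 1.6e-14). Its relative *Nr4a2* fell from 75.8 to 78.1 CPM in the Cb-N libraries to 28.4 to 29.5 in Cb-T (-1.39, adjusted p = 6.5e-29), and *Homer1*, a synaptic scaffold, fell by 34.4% in Cb (adjusted p = 7.8e-16) and fell by 42.1% in F/M (adjusted p = 2.1e-12). *Egr2* had between 0.0888 and 0.278 CPM in Cb-N, at about the floor, and 0.685 to 1.10 in Cb-T (adjusted p = 7.0e-06), but in F/M it fell by 44.0% (adjusted p = 8.7e-09). The changes of *Fosb* and *Nr4a1* in F/M were -47.0% (adjusted p = 1.0e-09) and -44.4% (adjusted p = 1.7e-12). Some genes of the list were called in opposite directions in the areas. *Egr1*, a zinc finger factor, rose from 55.7 to 75.1 CPM on average in Cb (adjusted p = 6.5e-13) and fell from 409.6 to 238 CPM in F/M (adjusted p = 1.1e-13). *Arc*, a synaptic immediate early gene, rose from 21.1 to 29.7 CPM in Cb (adjusted p = 7.3e-10) and fell from 338 to 211 CPM in F/M (adjusted p = 1.7e-12), and *Junb* rose from 8.52 to 12.4 CPM in Cb (adjusted p = 8.7e-06) and fell from 86.2 to 65.7 CPM in F/M (adjusted p = 0.0029).

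Of 10 glucocorticoid-induced genes, 4 fell and 1 rose in Cb and 6 fell and 0 rose in F/M, with medians of -0.14 and -0.28. In Cb 29.8% of all genes rose and 27.9% fell. The risers of the list lay below, and its fallers above, these shares. In F/M the shares of all genes were 12.8% and 14.4%. *Sgk1*, a kinase gene, fell by 18.7% in Cb (adjusted p = 3.9e-10) and fell by 31.9% in F/M (adjusted p = 1.1e-09), and the changes of *Cdkn1a* were -25.7% (adjusted p = 3.2e-06) and -27.8% (adjusted p = 3.6e-04). *Klf9*, itself a rhythmic repressor, fell by 16.7% in Cb (adjusted p = 1.2e-10) and fell by 18.1% in F/M (adjusted p = 1.7e-05). *Tsc22d3* changed by -14.7% (adjusted p = 1.1e-07) and -18.6% (adjusted p = 1.9e-05) in the same order, and *Zbtb16* by -28.5% in F/M (adjusted p = 2.2e-06). *Fkbp5*, a commonly used reporter of glucocorticoid receptor activity, rose in Cb from 7.11 to 8.03 CPM in the N libraries to 10.1 to 11.03 in T (0.54, adjusted p = 2.8e-06) and had 36.2 and 33.3 CPM on average in F/M (adjusted p = 0.22). None of the glucocorticoid list reached the 1.5-fold limit.

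**Figure D5:**
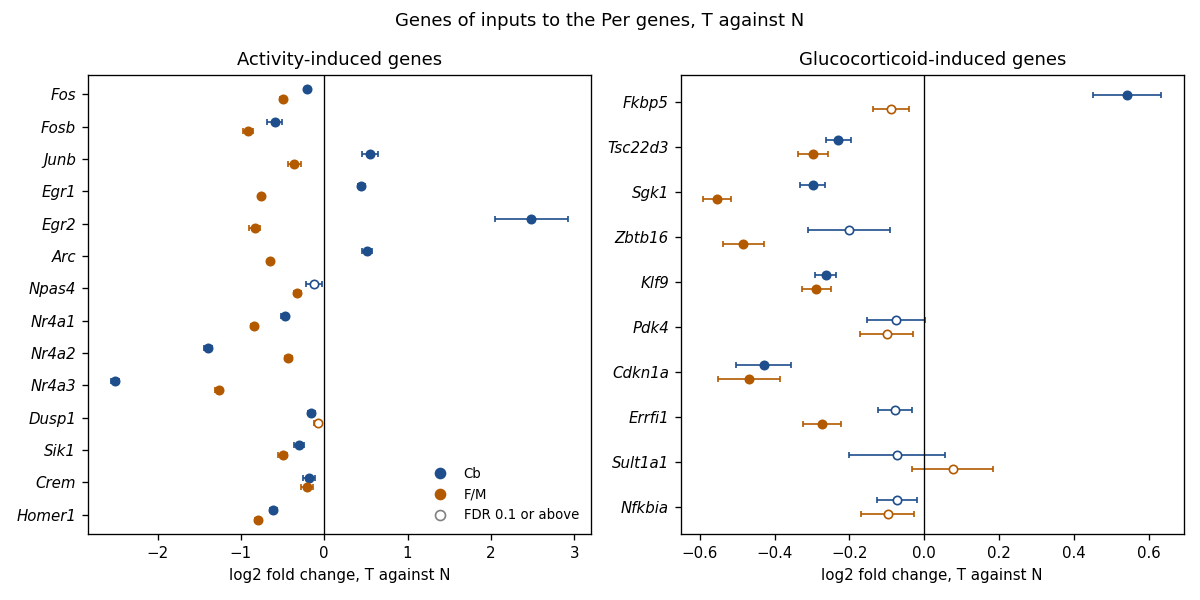
Log2 fold change, T against N, with its standard error, of activity-induced genes (left) and glucocorticoid-induced genes (right) in Cb (blue) and F/M (orange), each panel on its own scale; open points have an FDR of 0.1 or above. In F/M all 13 called activity genes lie below 0, while in Cb 4 called genes lie above 0 and *Nr4a3* reaches -2.51.

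The suprachiasmatic nucleus, the master clock, lies in the hypothalamus and so within the F/M part of the brain, as a very small share of it. Of the 11 genes of its list, *Prok2*, *Nms* and *Six6*, picked for their low level, averaged between 0.127 and 0.508 CPM in F/M and were at 0 in every Cb library. The others reached averages of up to 32.7 CPM in F/M-N (*Vip*). Of the 8 genes tested in F/M, 1 rose and 2 fell (12.8% and 14.4% of all genes). Of 7 in Cb, 3 rose and 3 fell (29.8% and 27.9% of all genes). *Vipr2*, the receptor through which its neurons are synchronized, fell in both areas. It had 17.5, 18.2 and 19.2 CPM in Cb-N and 9.54, 8.78 and 9.49 in Cb-T (-0.97, adjusted p = 1.9e-14), and 6.47, 6.35 and 5.76 CPM in F/M-N and 2.80, 2.32 and 2.40 in F/M-T (-1.27, adjusted p = 5.9e-07). *Vip*, its ligand, had 0.311, 0.138 and 0.0928 CPM in Cb-N, at about the floor, and 2.83, 2.82 and 2.49 in Cb-T (adjusted p = 3.4e-14), while in F/M it had 30.4 to 35.9 CPM in N and 32.5 to 33.8 in T (adjusted p = 0.58). *Adcyap1*, a neuropeptide gene, rose in Cb from 8.91 to 10.3 CPM to 14.1 to 16.5 CPM (adjusted p = 5.5e-10), and *Avp* rose in F/M from a mean of 3.86 to 5.45 CPM (adjusted p = 0.022). In F/M *Rgs16* fell by 27.6% (adjusted p = 2.6e-06).

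Cell-type markers moved with genotype in the same libraries. In bulk tissue, fewer cells of a type and less RNA per cell cannot be told apart. The 10 pan-neuronal markers summed to 6906 to 6971 CPM in Cb-N against 6412 to 6540 in Cb-T, and to 9464 to 9531 in F/M-N and 8901 to 9006 in F/M-T. Of these, 4 rose and 4 fell in Cb and 0 rose and 3 fell in F/M, with median log2 fold changes of 0.010 and -0.026. Beside this and the counts that follow, 29.8% of all genes rose and 27.9% fell in Cb. In F/M 12.8% of all genes rose and 14.4% fell. The 10 cerebellar neuron markers summed to 6754 to 6905 CPM in Cb-N against 5903 to 5996 in Cb-T, with 8 lower. The 15 microglial markers summed to 170 to 184 CPM in Cb-N against 636 to 651 in Cb-T, with 15 higher, and to 487 to 503 in F/M-N and 754 to 769 in F/M-T, with 13 higher. Astrocyte markers summed to 6508 to 6537 against 8372 to 8397 CPM in Cb and 5542 to 5836 against 6424 to 6799 in F/M, and 9 of 10 were higher in each area. Oligodendrocyte markers rose in Cb, 9 of 10, from 4771 to 4882 to 6235 to 6297 CPM, and overlapped in F/M (6122 to 6290 and 6075 to 6239 CPM). Endothelial markers summed to 290 to 303 and 326 to 328 CPM in Cb, and to 258 to 267 and 267 to 281 in F/M. None of the markers of these 5 cell types and of cerebellar neurons was at 0 in all libraries of a group, and their part in the clock gene differences was not tested.

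Among 11994 other genes with a mean of at least 5 CPM, *Spry4*, *Eif4g3*, *Srcin1* and *Marf1* were among the 5 whose log2 CPM over the 12 libraries lay closest to that of *Per1*, with Pearson's r from 0.985 to 0.980. Of these, *Spry4* had the largest step, with 18.7, 10.3, 18.5 and 12.03 CPM on average in Cb-N, Cb-T, F/M-N and F/M-T. For *Per2* they were *Spred2*, *Lgi2*, *Nr3c1*, *Madd* and *Tcf4*, with r from 0.992 to 0.985, and *Spred2* averaged 102, 65.8, 89.7 and 69.1 CPM in the same order. *Nr3c1*, which encodes the glucocorticoid receptor, averaged 167, 135, 161 and 139 CPM. These correlations rest on the 4 group means shared by all genes and are given as a description.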

How the data were processed

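Total RNA of Cb and F/M was made into stranded poly(A) libraries and sequenced as single-end reads. The authors aligned the reads to GRCm38 (mm10) with STAR (version 2.5.1b in the submitters' processing notes), counted them on genes with featureCounts 1.26.1 and deposited the raw counts, which are not normalized, as 1 gene table a library. How strand was set and the handling of reads with several alignments are not given in the sources used here.

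From these counts, each comparison was fitted on its 6 libraries (the interaction on all 12) in R 4.3.3 with edgeR 4.0.16: filterByExpr (minimum count 10, minimum total 15), TMM, quasi-likelihood test and Benjamini-Hochberg adjustment over all genes kept. A DEG needed an FDR below 0.1 and a 1.5-fold change in edgeR. The study used these limits and kept genes that more than 1 method called. Printed CPM share 1 TMM scale over 12 libraries, and log2 CPM for arms and correlations used a prior count of 2. Total counts per library were 21428379 to 24458189. Replicate libraries differed by more than sampling noise (chi-square per degree of freedom 1.27 to 3.37). Groups came from the sample titles.

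Named were the 10 members, *Tpp1*, up to 4 genes of each input list with the largest change past the FDR limit in a comparison, any gene of the wider clock lists, and the 5 genes most correlated with *Per1* and with *Per2*. *Sphk2*, *Thra*, *D930015M05Rik* and *Gm45355* were named for their position, *Prok2*, *Nms* and *Six6* for their low level, and *Junb*, after their values were seen. A few genes that this rule names are not reported here. The members and lists were chosen with earlier results of these data known. The fits were tested on simulated data. Alternatives were RLE size factors, total count scaling (chosen after seeing the data), DESeq2 1.42.0, limma-voom (limma 3.58.1), other filters, a replicate block, a single fit, calls by at least 2 methods, an FDR of 0.05 and leaving out each replicate.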

Additional observations from a re-analysis of the deposited data

Results flagged for a closer look

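The genotype change differed between Cb and F/M, by the interaction test of edgeR over 12 libraries, for 3 members. The difference, Cb minus F/M on the log2 scale, was -0.48 for *Per2* (adjusted p = 5.9e-06), -0.16 for *Nr1d2* (adjusted p = 0.0053) and -0.14 for *Per1* (adjusted p = 0.034). Each of these fell in both areas and fell further in Cb.

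Among other clock genes the difference was 0.68 for *Npas2* (adjusted p = 1.6e-04), 0.47 for *Bhlhe40* (adjusted p = 8.9e-10), 0.29 for *Rorb* (adjusted p = 0.0048), 0.20 for *Tef* (adjusted p = 2.2e-05), 0.18 for *Hlf* (adjusted p = 0.0012), 0.20 for *Wee1* (adjusted p = 0.090) and 0.15 for *Csnk1e* (adjusted p = 0.033). It was -0.23 for *Usp2* (adjusted p = 0.0019) and -0.13 for *Csnk2a1* (adjusted p = 0.062). *Npas2*, *Bhlhe40* and *Tef* were called in opposite directions in the 2 areas.

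Among the named input genes it was 3.34 for *Egr2* (adjusted p = 9.0e-08), 1.22 for *Egr1* (adjusted p = 1.8e-18), 1.18 for *Arc* (adjusted p = 2.5e-15), 0.93 for *Junb* (adjusted p = 8.4e-05), 0.39 for *Nr4a1* (adjusted p = 1.2e-06), 0.34 for *Fosb* (adjusted p = 0.020) and 0.20 for *Homer1* (adjusted p = 0.016), but -1.23 for *Nr4a3* (adjusted p = 3.3e-15) and -0.94 for *Nr4a2* (adjusted p = 4.2e-14). It was 0.65 for *Fkbp5* (adjusted p = 4.2e-06), 0.27 for *Sgk1* (adjusted p = 1.0e-04) and 0.30 for *Zbtb16* (adjusted p = 0.058). Among genes of the suprachiasmatic list it was 3.84 for *Vip* (adjusted p = 5.8e-11), 1.63 for *Grp* (adjusted p = 2.3e-04), 0.69 for *Adcyap1* (adjusted p = 5.7e-05) and 0.28 for *Rgs16* (adjusted p = 0.0076). The values of *Egr2* and *Vip* depend on Cb-N levels at about 3 counts.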

How the results depend on the processing

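*Per1* and *Per2* were the 2 members called in Cb and in F/M under every alternative tried, and no alternative reversed a T against N change of a member in either area. Of the gene values under alternatives, 553 kept direction and side of the threshold, 12 newly passed it, 18 no longer passed it and 27 reversed, all of the latter in interactions that were not called. Those were *Clock* -0.024 and *Nr1d1* -0.0065 with RLE size factors and with DESeq2, *Per3* 0.012 with no filter, and *Cry2* -0.012, *Clock* -0.044, *Arntl* -0.013 and *Nr1d1* -0.027 at a mean count of at least 50. With each replicate left out, the interactions ranged for *Per3* from -0.076 to 0.039, for *Cry2* from -0.047 to 0.067, for *Clock* from -0.055 to 0.037, for *Arntl* from -0.019 to 0.069 and for *Nr1d1* from -0.039 to 0.027. The number of members past FDR 0.1 in the interaction was between 2 and 5 when replicates were left out, 5 without F/M-N replicate 2. The cause was not tested.

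Same-numbered libraries of T and N did not deviate together (correlations across genes between -0.016 and 0.062), so the numbers do not pair them. With the replicate block, 10 members passed FDR 0.1 in Cb, 8 in F/M (*Arntl* at an adjusted p of 0.075) and 4 in the interaction (*Dbp* at 0.077). Small steps such as those of *Arntl* depend on the scaling: total count scaling shifted the median of all genes in Cb from 0.012 to 0.054.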
